A study of Mus musculus with 13 samples.

Results

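The comparison set 1 RNA library of primary mouse neural stem cells (NSC) against 1 RNA library of mouse embryonic fibroblasts before any treatment (D0). These are 2 of the 9 RNA libraries in a series of 13 samples, and they were chosen by their labels alone. The other 7 RNA libraries came from fibroblasts treated with chemicals or growth factors, and the other 4 samples are ATAC-seq libraries that were not analysed here. Both populations came from Nestin::GFP transgenic mice, whose GFP reporter marks cells with an active Nestin gene, and both were at passage 3. The NSC were sorted for GFP by flow cytometry (FACS), whereas D0 was not sorted and received no treatment. The fibroblasts were isolated from E13.5 embryos and grown in DMEM with fetal bovine serum. For the NSC, the labels read here give neither the tissue of origin, the age, the medium nor the number of animals. Cell type, sort and culture differ together between the libraries, so their shares in a difference cannot be told apart. Of 30332 genes in the table, 12906 had a CPM (the estimated count scaled to the library's total) of at least 5 in 1 or both libraries, and these were compared.

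Neural stem cells of the forebrain divide, keep themselves in an undifferentiated state through SoxB1 transcription factors and Notch signalling, and give rise to neurons, astrocytes and oligodendrocytes. In culture they are commonly grown with EGF and FGF, and cultures of them can hold stem cells beside their early neuronal and glial progeny. Embryonic fibroblasts are mesenchymal cells of connective tissue that secrete collagen and elastic fibres, pull on that matrix with actin filaments, and keep the homeobox (Hox) genes of their position in the body active.

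Each group was 1 library, so there was no replicate and no p-value, and every difference is between these libraries. The NSC library held 20104940 estimated counts and D0 held 36751356. A floor of 3 counts equals 0.149 CPM in NSC and 0.0816 CPM in D0. All intervals are 95% intervals that cover counting error only. More genes reached 1 CPM in NSC (15777) than in D0 (12424), and the 20 most abundant genes took 6.078% of counts in NSC and 12.9% in D0. The NSC library also stood apart from all the others in genes that neither cell type is known for. The 1187 olfactory receptor genes summed to 271 CPM in NSC and 10.7 CPM in D0, with 5.76 to 18.3 CPM in the other 7 libraries. The 531 vomeronasal receptor genes summed to 196 CPM in NSC and 7.63 CPM in D0. The part of this low-level signal in the results below was not tested.

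The library scaling shifted the whole comparison. The median gene differed by 1.00 between NSC and D0 on the scale of log2(CPM + 1), by 0.36 after median ratio scaling and by -0.30 after TMM scaling. At a 2-fold difference, CPM gave 6445 genes higher in NSC (49.9% of those compared) and 2242 lower (17.4%). Median ratio scaling gave 37.7% higher and 25.8% lower. TMM scaling gave 3311 higher (26.3%) and 4566 lower (36.3%). A gene is therefore called higher or lower below only where it passed 2-fold in the same direction under all 3 scalings. Among the 12363 genes compared under all 3, 3311 (26.8%) were higher and 2242 (18.1%) lower in NSC, and the counts of list members below are to be read against these shares. Levels are in CPM, which are not corrected for transcript length, so they are compared between libraries and not between genes. Printed folds are ratios of these CPM, without the other scalings. TMM scaling multiplies CPM by 0.66 in NSC and by 1.51 in D0. It makes each fold higher in NSC smaller and each fold lower in NSC larger, and the printed intervals do not cover this shift. Differences of log2(CPM + 1) understate the change of genes near 0. A gene near 0 in 1 library passes the filter of 5 CPM only through the other, which fixes its direction. For lists near 0 in 1 library, the counts and medians of compared members therefore describe levels and are no test.

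The sharpest differences were on the NSC side for genes of neurons and interneurons and on the D0 side for secreted matrix genes. Vtn, which encodes the adhesive glycoprotein vitronectin, had 780 CPM in NSC and 0.0816 CPM (3 counts) in D0, a ratio of 9555-fold (interval 3269 to 46340.2). Nrxn3, which encodes a presynaptic adhesion protein, had 720 CPM in NSC and 0 counts in D0, at least 8821-fold higher. The 15 genes with the highest differences also included Dlx1, Sez6, Rtn1, Dcx, Olig1, Nol4, Gad1, Nsg2, Stmn3 and Sp9. All 15 stood between 327 and 1058 CPM in NSC and did not exceed 1.12 CPM in D0. None of the other 7 libraries reached the NSC level of any of them, their highest value being 21.5 CPM. At the other end, Lox, the enzyme that cross-links collagen and elastin, had 0 counts in NSC and 2899 CPM in D0, at least 19429.5-fold lower in NSC. The 14 further genes at this end were Thbs1, Postn, Ly6a, Crabp1, Col1a1, Thbs2, Dcn, Serpinf1, Ctsk, Nov, Ahnak2, Wisp2, Lgals3 and S100a6, and none of the 15 exceeded 8.95 CPM in NSC while all reached at least 329.9 CPM in D0.

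A switch between clear expression and near absence was seen in both directions. In NSC 121 genes had 20 CPM or more while D0 held at most 3 counts of them. In the opposite direction, 51 genes had at most 3 counts in NSC and 20 CPM or more in D0. Of the 121 genes, 5 (Olig1, Syt6, Dab1, Kcnk10 and Hba-a2) reached 20 CPM in any of the other 7 libraries, and of the 51 genes all but 1500015O10Rik did. Hba-a2 has a near-identical copy, so its count is uncertain. These counts describe the libraries, since all 7 others descend from fibroblasts like those of D0.

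**Figure D1:**
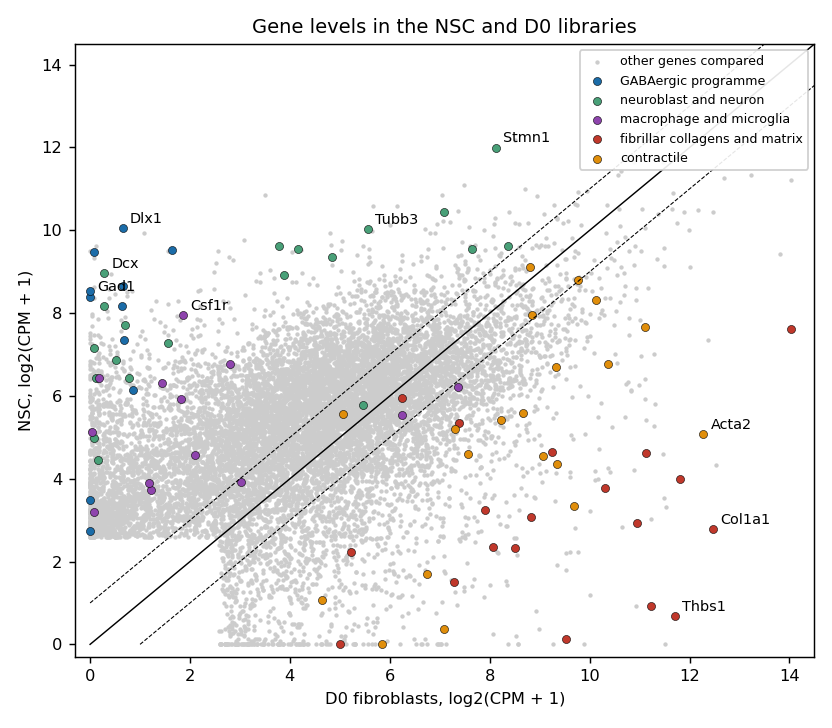
Level of each compared gene in NSC (vertical axis) and in D0 (horizontal axis), both as log2(CPM + 1), 1 point a gene and 1 library an axis. The solid line marks equal levels and the dashed lines a 2-fold difference. Genes of the GABAergic programme lie along the left edge, where D0 is near 0, and collagen and contractile genes lie below the lines, with Col1a1 at 5.87 CPM in NSC and 5658 CPM in D0.

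The marker genes given for the NSC library were Dlx1, Olig1, Bcan and Dcx, which stand for interneuron progenitors, the oligodendrocyte lineage, neural matrix and migrating neuroblasts. They were picked with results of these data known, so their levels describe the label and support nothing. Dlx1 (chromosome 2, 71528113 to 71533981, GRCm38.p6) had 1058 CPM in NSC and 0.572 CPM in D0, a ratio of 1851-fold (interval 1210.4 to 2991). Olig1 (chromosome 16, 91269769 to 91271939) had 395 CPM in NSC and 0.0544 CPM (2 counts) in D0, 7251-fold (2007 to 59882). Bcan, which encodes the brain proteoglycan brevican, had 327 CPM in NSC and 0.299 CPM in D0, 1091-fold (609.5 to 2187). Dcx, which encodes the microtubule protein doublecortin, had 497 CPM in NSC and 0.22 CPM in D0, 2284-fold (1159 to 5291). The 4 genes together summed to 2276 CPM in NSC and 1.15 CPM in D0, and the other 7 libraries held between 1.19 and 42.3 CPM.

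Promoters are shown for 3 genes of the NSC side and 3 of the D0 side, because they differ in their content of CpG, the dinucleotide that DNA methylation acts on. Each line gives the 250 bases before the 1 start per gene that the RefSeq promoter table holds (GRCm38.p6), written 5′ to 3′ on the strand of the gene, and the capitals mark CG dinucleotides. For Dlx1, Bcan and Acta2 that start lies inside the full span annotated for the gene, so the window overlaps the span, and for Dlx2, Thbs2 and Col3a1 it is the end of the span.
Dlx1, chr2:71529195-71529444, plus strand: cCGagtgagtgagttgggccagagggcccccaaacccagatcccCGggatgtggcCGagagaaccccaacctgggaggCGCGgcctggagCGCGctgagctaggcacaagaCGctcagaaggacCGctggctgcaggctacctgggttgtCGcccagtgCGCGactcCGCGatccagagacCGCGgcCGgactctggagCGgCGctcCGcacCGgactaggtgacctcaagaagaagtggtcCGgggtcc
Dlx2, chr2:71546755-71547004, minus strand: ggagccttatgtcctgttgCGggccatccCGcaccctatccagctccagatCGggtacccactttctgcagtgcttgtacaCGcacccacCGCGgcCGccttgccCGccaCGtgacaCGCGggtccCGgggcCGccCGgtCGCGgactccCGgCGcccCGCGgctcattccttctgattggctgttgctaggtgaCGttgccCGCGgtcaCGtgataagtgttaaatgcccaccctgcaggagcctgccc
Bcan, chr3:88000357-88000606, minus strand: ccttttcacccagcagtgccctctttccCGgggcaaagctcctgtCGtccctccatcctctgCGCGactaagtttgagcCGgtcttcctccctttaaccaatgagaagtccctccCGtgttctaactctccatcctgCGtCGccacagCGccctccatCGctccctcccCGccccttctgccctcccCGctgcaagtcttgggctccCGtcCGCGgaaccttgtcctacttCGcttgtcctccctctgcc
Thbs2, chr17:14694263-14694512, minus strand: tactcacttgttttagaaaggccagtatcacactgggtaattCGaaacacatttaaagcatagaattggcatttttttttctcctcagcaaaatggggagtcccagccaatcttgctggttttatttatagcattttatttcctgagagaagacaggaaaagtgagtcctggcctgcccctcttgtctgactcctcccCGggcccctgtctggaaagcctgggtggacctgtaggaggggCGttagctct
Col3a1, chr1:45311288-45311537, plus strand: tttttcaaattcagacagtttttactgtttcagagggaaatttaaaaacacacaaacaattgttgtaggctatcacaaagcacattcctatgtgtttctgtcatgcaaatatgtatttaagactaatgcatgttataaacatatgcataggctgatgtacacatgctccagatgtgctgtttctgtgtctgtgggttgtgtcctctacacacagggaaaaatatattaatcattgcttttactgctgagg
Acta2, chr19:34255374-34255623, minus strand: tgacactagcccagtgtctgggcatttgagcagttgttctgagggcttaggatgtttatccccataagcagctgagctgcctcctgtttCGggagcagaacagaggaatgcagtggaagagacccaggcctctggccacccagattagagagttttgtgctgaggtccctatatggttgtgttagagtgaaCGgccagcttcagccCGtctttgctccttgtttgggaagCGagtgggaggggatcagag
The windows of Dlx1, Dlx2 and Bcan hold 22, 24 and 16 CG dinucleotides, and those of Thbs2, Col3a1 and Acta2 hold 3, 0 and 4. The letters TATAAA, read on both strands, occur in the windows of Thbs2 and Col3a1 and in 13.6% of all promoters in the table. These are 6 chosen windows, and the shares over all genes are given at the end.

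Transcription factors of neural stem cells were higher in NSC almost without exception, and D0 held few or no counts of most. In the list of SoxB1 and other stem cell genes, 10 of 10 members compared under all 3 scalings were higher, with a median log2 difference of 5.12 beside 1.00 for all genes. Sox2, a SoxB1 factor, had 267 CPM in NSC and 1.33 CPM in D0, 200.4-fold (151 to 271). Sox1 had 52.6 CPM in NSC and 0.136 CPM in D0, and Pax6, a homeobox factor of radial glia, had 56.3 CPM in NSC and 0.651 CPM in D0. The Notch effector Hes5 had 89.3 CPM in NSC and the nuclear receptor gene Nr2e1 24.7 CPM, with 0 counts of both in D0. Nes, whose regulatory sequence drives the reporter that was sorted for, had 344 CPM in NSC and 7.59 CPM in D0, and being tied to the sort it is no independent result. In a bulk library, fewer cells of a type and less RNA of a gene per cell cannot be told apart, and this holds for every level here.

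Regional transcription factors of the forebrain were higher in NSC, and most of those of more posterior neural tube were low in both libraries. Of 14 forebrain factors compared under all 3 scalings, 12 were higher and 0 lower. Lhx2, a homeobox factor of forebrain progenitors, had 67.3 CPM in NSC and 0.109 CPM in D0, 619-fold (241 to 2274). Gsx1 and Gsx2, factors of ventral telencephalic progenitors, had 34.4 and 16.6 CPM in NSC and 0 counts in D0. Emx1 and Eomes, known from cortical progenitors, were at 1.44 and 0.814 CPM in NSC and at 0 and 0.409 CPM in D0. Of 18 factors of midbrain, hindbrain and spinal cord, 16 were under 5 CPM in both libraries. The 2 compared, En1 and Irx3, were lower in NSC, at 0.149 and 0.448 CPM, against 12.5 and 10.9 CPM in D0.

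The GABAergic programme made the largest median difference of the lists apart from the given markers, at 7.89. All 10 members compared under all 3 scalings were higher in NSC. Most of them could pass the filter of 5 CPM only through NSC, since the whole list summed to 10.4 CPM in D0. Their common direction was thus largely set by the filter. Dlx2 and Dlx5, homeobox factors of interneuron progenitors, had 734 and 163 CPM in NSC and 2.1 and 0.599 CPM in D0. Sp9, a zinc finger factor of interneuron development, had 404 CPM in NSC and 0.574 CPM in D0, 708-fold (463 to 1144). The enzymes that make GABA followed, with Gad1 at 335 CPM in NSC and 0 counts in D0, at least 4101-fold higher, and Gad2 at 287 CPM in NSC and 0.55 CPM in D0. Some interneuron genes were at or near 0. Lhx6 and Nkx2-1, factors of the medial ganglionic eminence, had 0.416 and 1.37 CPM in NSC. Lhx8, Isl1 and Sst had 0 counts in NSC, for which the interval reaches up to 0.183 CPM. The list summed to 4153 CPM in NSC and 10.4 CPM in D0, with 9.02 to 105 CPM in the other 7 libraries.

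Among the proneural factors, basic helix-loop-helix and zinc finger proteins that start neurogenesis, 6 of 14 were compared and all 6 were higher in NSC. Insm1 and Myt1, zinc finger genes of newborn neurons, had 174 and 165 CPM in NSC and 0 counts in D0. Neurog1 and Neurog2, proneural factors of dorsal neural progenitors, had 0 counts in both libraries. Genes of neuroblasts and neurons were higher for 17 of 20 members and lower for 0, with a median difference of 5.21. Tubb3, a neuronal tubulin gene, had 1038 CPM in NSC and 46 CPM in D0, and the RNA-binding gene Elavl3 had 142 CPM in NSC and 0.0574 CPM in D0. Not all markers of mature neurons differed. Rbfox3 (NeuN) had 30.4 CPM in NSC and 0.0544 CPM in D0, whereas the neurofilament genes Nefl and Nefm had 0.0497 and 1.27 CPM in NSC and 0 and 0.112 CPM in D0.

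Oligodendrocyte lineage genes were higher for 9 of 12 members and lower for 0. Olig2, the partner of Olig1 in specifying the lineage, had 114 CPM in NSC and 0 counts in D0, at least 1393-fold higher. Gpr17, a receptor gene of committed oligodendrocyte progenitors, had 252 CPM in NSC and 0.0272 CPM (1 count) in D0, 9259-fold (1661 to 365770.4). The myelin gene Mbp had 32.6 CPM in NSC and 3.54 CPM in D0, while Mag and Mog stayed at 1.21 and 1.24 CPM in NSC and at 0.245 and 0.0272 CPM in D0. Pdgfra, the growth factor receptor of oligodendrocyte progenitors and also of fibroblasts, had 168 CPM in NSC and 79.2 CPM in D0. Its log2 difference of 1.08 was not called, since TMM scaling turned it to -0.11.

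Genes of radial glia and astrocytes split. Of 18 compared, 13 were higher and 3 lower in NSC. The glutamate transporter gene Slc1a3 had 276 CPM in NSC and 5.97 CPM in D0, the lipid-binding gene Fabp7 had 106 CPM in NSC and 2.2 CPM in D0, and Nfib, a transcription factor of glial development, had 1127 CPM in NSC and 62.9 CPM in D0. The 3 lower genes were Tnc, Vim and Gja1, all of which fibroblasts also use. Tnc, a matrix glycoprotein, had 5.97 CPM in NSC and 831 CPM in D0, 139-fold lower (116 to 168). Vim, the intermediate filament gene often used as a neural stem cell marker, had 127 CPM in NSC and 1459 CPM in D0, 11.5-fold lower (11 to 11.9). The mature astrocyte genes Gfap and Aqp4 were under 5 CPM in both libraries, at 1.34 and 3.23 CPM in NSC and 0.381 and 0.0272 CPM in D0.

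Neural proteoglycans and adhesion molecules were higher for 13 of 17 members, with Tnc again the 1 lower. Ncan (neurocan) had 233 CPM in NSC and 0.279 CPM in D0, and Ptprz1, a receptor phosphatase that carries chondroitin sulphate, had 525 CPM in NSC and 11.1 CPM in D0. Channels, receptors and pumps of neural cells were higher for 13 of 16 members and lower for 0. Gria2, an AMPA receptor subunit, had 310 CPM in NSC and 1.48 CPM in D0. Cacng5, which encodes an auxiliary subunit of such receptors, had 108 CPM in NSC and 0 counts in D0. Of 28 axon guidance genes, 13 were higher and 5 lower. The lower share, 17.9%, was close to the 18.1% of all genes. Slit1 and Slit3, secreted repellents of the same family, differed in opposite directions: Slit1 had 122 CPM in NSC and 0.109 CPM in D0, and Slit3 had 1.59 CPM in NSC and 177 CPM in D0. Of 15 cadherins, 7 were higher and 4 lower, the latter being 26.7% beside 18.1% of all genes. Among them were Pcdh15 at 50.5 CPM in NSC and 0.409 CPM in D0 and the mesenchymal cadherin Cdh11 at 32.2 CPM in NSC and 503 CPM in D0.

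Notch pathway genes were more often higher than lower in NSC. Of 18 members compared under all 3 scalings, 13 were higher and 1 lower. Among ligands, Dll1 and Dll3 had 60 and 84.2 CPM in NSC and 0.19 and 0.309 CPM in D0. The receptor Notch1 had 154 CPM in NSC and 7.92 CPM in D0, and Mfng, a glycosyltransferase that modifies Notch, had 110.5 CPM in NSC and 0.133 CPM in D0. The Hes target genes parted: Hes5 was the higher one, at 89.3 CPM in NSC and 0 counts in D0, and Hes1 the lower one, at 17.3 CPM in NSC and 102 CPM in D0, 5.9-fold lower (5.28 to 6.61).

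Receptors of the mitogens that such cultures commonly use did not move as a group. Of 18 EGF and FGF receptor and feedback genes, 5 were higher and 2 lower, and the median difference of 1.72 compares with 1.00 for all genes. Egfr had 148 CPM in NSC and 35.1 CPM in D0, a log2 difference of 2.05 that TMM scaling took to 0.87. Fgfr3 had 56.1 CPM in NSC and 0.272 CPM in D0, whereas Fgfr1 had 24 CPM in NSC and 91.2 CPM in D0. Among the ERBB receptors, Erbb4 had 54.1 CPM in NSC and 0.136 CPM in D0. Erbb2 stood at 0.0497 CPM (1 count) in NSC and 12.9 CPM in D0, 259.9-fold lower (46.4 to 10285), and at 11.9 to 80.3 CPM in the other 7 libraries. In the hedgehog list, 3 of 8 were higher and 2 lower. Ptch1, a receptor that is also a target of the pathway, had 64.4 CPM in NSC and 1.47 CPM in D0, while the factor Gli3 had 2.34 CPM in NSC and 30.4 CPM in D0 and Gli1 stayed at 0.149 CPM in NSC and 0.109 CPM in D0.

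Regulators of splicing and chromatin that differ between neural and other cells were mostly higher. Of 15 RNA-binding and splicing genes, 11 were higher and 0 lower, with Ptbp2, the neural polypyrimidine tract binding protein, at 273 CPM in NSC and 8.73 CPM in D0. Its widely expressed relative Ptbp1 had 256 CPM in NSC and 89.4 CPM in D0 and was not called. Srrm4, a splicing activator of neuronal microexons, had 80.6 CPM in NSC and 1.14 CPM in D0. Of 24 chromatin genes, 14 were higher and 2 lower. Chd7, a chromatin remodeller, had 507 CPM in NSC and 4.6 CPM in D0, 110.2-fold (94.7 to 129), and Actl6b, the BAF complex subunit of neurons, had 61 CPM in NSC and 0 counts in D0. The lower ones were Rest, a repressor of neuronal genes outside neurons, at 17.6 CPM in NSC and 62.2 CPM in D0, and Phf10, a BAF subunit of progenitors, at 38.9 CPM in NSC and 79.1 CPM in D0. In the fetal growth list of Lin28 and Hmga genes, 5 of 6 were lower. Hmga2 had 3.74 CPM in NSC and 87.9 CPM in D0, and Igf2bp2 had 0.604 CPM in NSC and 74.6 CPM in D0.

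**Figure D2:**
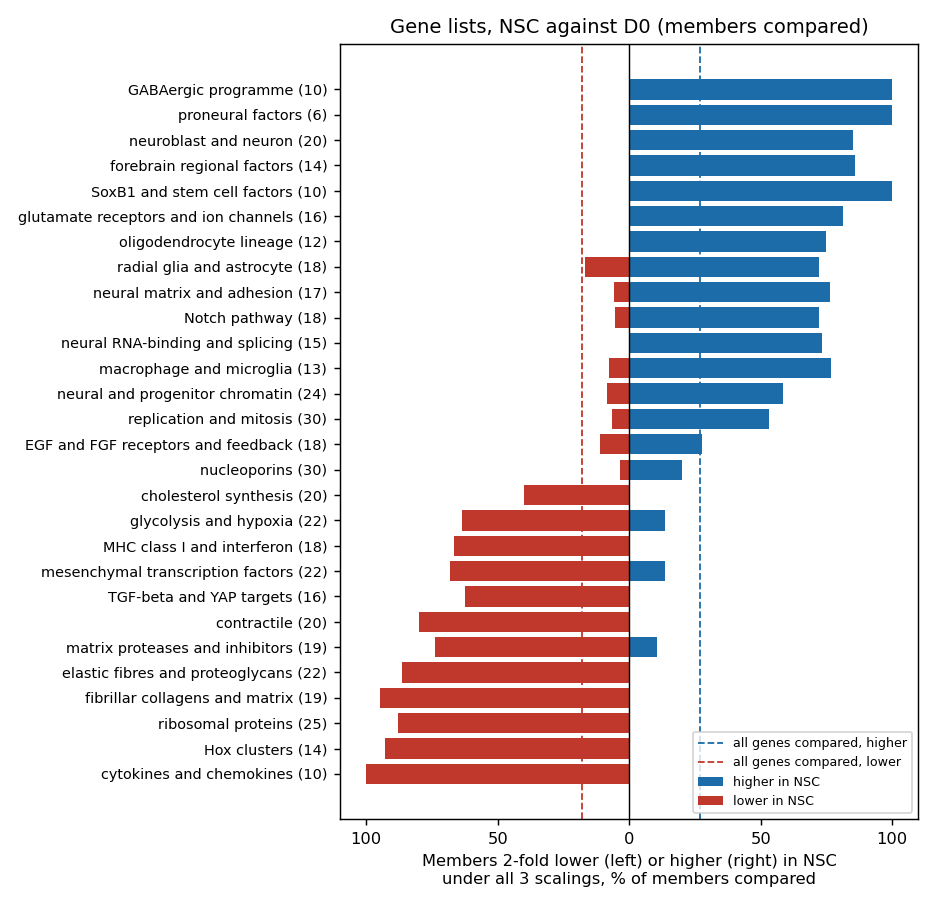
Share of each list's members at least 2-fold higher (bars to the right) or lower (bars to the left) in NSC than in D0 under all 3 scalings, in % of the members compared, whose number stands in brackets. Dashed lines give the same shares over all genes compared, 26.8% higher and 18.1% lower. The order of the lists was set by hand. Neural lists lie in the upper part with all or most members higher, and the macrophage and microglia list stands among them. Connective tissue lists lie in the lower part with most members lower, above the ribosomal protein, Hox and cytokine lists.

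The fibroblast side was led by the matrix. Of 19 fibrillar collagen and matrix genes, 18 were lower in NSC and 0 higher, with a median log2 difference of -6.2. Col1a1, a chain of type I collagen, had 5.87 CPM in NSC and 5658 CPM in D0, 964-fold lower (805 to 1165). Thbs1 and Thbs2, the thrombospondins, had 0.597 and 0.0995 CPM in NSC and 3330.3 and 734 CPM in D0. Sparc, a collagen-binding protein, was also lower but kept 197 CPM in NSC, against 16721 CPM in D0. The 1 gene not called was Lamc1, a basement membrane laminin chain, at 60.6 CPM in NSC and 75 CPM in D0. The whole list summed to 418 CPM in NSC and 40289.6 CPM in D0, and to 9907 CPM or more in each of the other 7 libraries.

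Elastic fibre and small proteoglycan genes were lower for 19 of 22 members and higher for 0. Dcn, Lum and Fmod, which encode decorin, lumican and fibromodulin, had 0 counts in NSC and 613, 97.5 and 129 CPM in D0. Fbln5, needed to assemble elastic fibres, had 6.17 CPM in NSC and 1602 CPM in D0. Proteases and their inhibitors divided, with 14 of 19 lower and 2 higher. Timp1, a metalloprotease inhibitor, had 2.79 CPM in NSC and 648 CPM in D0, 233-fold lower (179 to 308), whereas its relative Timp4 had 19.4 CPM in NSC and 1.41 CPM in D0. The collagenase gene Mmp13 had 0 counts in NSC and 122 CPM in D0, and the membrane protease gene Mmp15 had 20.1 CPM in NSC and 0.816 CPM in D0.

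Contractile genes were lower for 16 of 20 members and higher for 0. Acta2, the smooth muscle actin of myofibroblasts, had 32.7 CPM in NSC and 4957 CPM in D0, 152-fold lower (140.5 to 164). Cnn1 (calponin) had 0 counts in NSC and 56.3 CPM in D0, and Tagln (transgelin) had 9.1 CPM in NSC and 826 CPM in D0. Flna, a widely expressed actin cross-linker, had 555 CPM in NSC and 446 CPM in D0, and the sign of its difference turned with the scaling. Of 16 genes that TGF-beta or YAP drive, 10 were lower and 0 higher. Ctgf and Cyr61, matricellular targets of YAP, had 8.36 and 17 CPM in NSC and 1030.2 and 1356 CPM in D0. Amotl2, also a YAP target, had 114 CPM in NSC and 110.1 CPM in D0, and its sign too turned with the scaling.

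Transcription factors of mesenchyme were lower for 15 of 22 members and higher for 3. Twist2 and Prrx2, factors of connective tissue, had 0 counts in NSC and 49.1 and 129 CPM in D0. Snai2 had 4.6 CPM in NSC and 123 CPM in D0. The higher members were Zeb1, Zeb2 and Foxf2. Zeb1 had 299.5 CPM in NSC and 48.3 CPM in D0, and Zeb2 had 366 CPM in NSC and 50.9 CPM in D0, and both factors are known in neural progenitors and neurons as well as in mesenchyme. Foxf2 had 15.7 CPM in NSC and 1.81 CPM in D0, and is known in brain pericytes as well as in connective tissue.

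The Hox genes, which record position along the body axis and are silent in the forebrain, were low in NSC. All 39 genes together summed to 30.1 CPM in NSC and 288 CPM in D0, and to 141 CPM or more in the other 7 libraries. Of 14 compared, 13 were lower and 0 higher, and 15 of the 39 had 0 counts in NSC while 0 of the 39 did so in D0. Hoxc6 had 0.0497 CPM (1 count) in NSC and 25.5 CPM in D0, 513-fold lower (91.9 to 20289). Hoxc8 had 1.7 CPM in NSC and 42.5 CPM in D0. Hoxc9 had 6.08 CPM in NSC and 13.9 CPM in D0, 2.3-fold lower, and Hoxa9, the 1 gene not called, had 4.97 CPM in NSC and 9.22 CPM in D0.

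Surface proteins of mesenchymal cells were lower for 13 of 18 members. Ly6a (Sca-1) had 0.895 CPM in NSC and 1942 CPM in D0, 2169-fold lower (1372 to 3659.7), and Thy1 had 1.94 CPM in NSC and 149 CPM in D0. Cd34, a sialomucin of stromal, vascular and blood progenitor cells, was the 1 higher member, at 50.1 CPM in NSC and 7.33 CPM in D0. Among integrins and laminins 9 of 20 were lower and 3 higher. The fibronectin receptor subunit gene Itga5 had 1.19 CPM in NSC and 71 CPM in D0. Itgb8, an integrin subunit of neural progenitors and glia, had 70.4 CPM in NSC and 2.83 CPM in D0.

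Immune genes of the fibroblasts were lower as well. Cytokine and chemokine genes were lower for 10 of 10 members, with Ccl7, a monocyte chemokine, at 0.746 CPM in NSC and 483 CPM in D0, 647-fold lower (392 to 1156). Genes of antigen presentation and the interferon response were lower for 12 of 18 members and higher for 0. B2m, the light chain of MHC class I, had 84.4 CPM in NSC and 2191 CPM in D0.

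Replication and mitosis genes were more often higher than lower in NSC, and CDK inhibitors, which hold the cycle back, went both ways. Of 30 replication and mitosis genes, 16 were higher and 2 lower. Mki67, which encodes the proliferation antigen Ki-67, had 247 CPM in NSC and 30 CPM in D0, and Mcm7, a subunit of the replicative helicase, had 455 CPM in NSC and 40.8 CPM in D0. The lower members were the D-type cyclins Ccnd1 and Ccnd3. Ccnd1 had 20.5 CPM in NSC and 260 CPM in D0, 12.7-fold lower (11.5 to 14), whereas Ccnd2 had 3187 CPM in NSC and 1897 CPM in D0 and was not called. Of 14 CDK inhibitors and p53 targets, 7 were lower and 1 higher. Cdkn1a (p21) had 37.1 CPM in NSC and 1398 CPM in D0, and Cdkn2b (p15) had 0.945 CPM in NSC and 162 CPM in D0. The higher member was Cdkn1b (p27), at 73.5 CPM in NSC and 11.3 CPM in D0. Cdkn2c (p18) and Cdkn2d (p19) had 39 and 89.7 CPM in NSC and 8.65 and 23.8 CPM in D0, and were not called under all 3 scalings.

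Imprinted growth genes were lower for 8 of 13 members and higher for 1. The fetal growth factor gene Igf2 had 14.7 CPM in NSC and 1101 CPM in D0, 75.1-fold lower (66.9 to 84.4). Nnat (neuronatin), a membrane protein gene of the developing brain, went the other way, at 1856 CPM in NSC and 10.4 CPM in D0, 179-fold (162 to 199). Of 30 nucleoporin genes, 6 were higher under all 3 scalings, beside 26.8% of all genes, and 1 was lower. With CPM alone 20 of the 30 were higher, beside 49.9% of all genes, so their count against the background depended on the scaling. Nup210 had 47.3 CPM in NSC and 0.136 CPM in D0, 348-fold (148 to 1073), whereas Sec13, shared between the pore and secretory vesicle coats, had 172 CPM in NSC and 461 CPM in D0.

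Glycolysis genes were lower for 14 of 22 members and higher for 3. The isoforms parted within families: Ldha, the muscle type subunit of lactate dehydrogenase, had 128 CPM in NSC and 2514 CPM in D0, and Ldhb, the heart type subunit, had 367 CPM in NSC and 64.3 CPM in D0. Aldolase showed the same exchange, with Aldoa at 236 CPM in NSC and 1755 CPM in D0 and the brain form Aldoc at 116 CPM in NSC and 10.7 CPM in D0. Slc2a3, the neuronal glucose transporter gene, had 41.1 CPM in NSC and 6.39 CPM in D0. Sterol synthesis genes were lower for 8 of 20 members and higher for 0, with Fdps at 134 CPM in NSC and 487 CPM in D0.

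Ribosomal, mitochondrial and several reference genes were lower in NSC. Ribosomal protein genes were lower for 22 of 25 members, with a median log2 difference of -1.62, and summed to 5471 CPM in NSC and 16927 CPM in D0. They have many near-identical pseudogenes, and which of these shared such reads depends on the annotation behind the gene sums, which is not given here. The 13 mitochondrially encoded genes were lower in 13 of 13, and took 0.991% of counts in NSC and 3.39% in D0. Of 15 genes commonly used as references, 7 were lower and 0 higher, among them Actb, at 689.8 CPM in NSC and 14399.7 CPM in D0, 20.9-fold lower (20.5 to 21.2). The part of differences in RNA quality or library preparation in these values was not tested.

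The NSC library also held higher levels of some genes used as markers of cells other than neural ones. Of 14 markers of macrophages and microglia, 13 were compared, 10 were higher and 1 was lower in NSC. None of the 14 was at 0 counts in either library. Their levels summed to 805 CPM in NSC and 265 CPM in D0, with 74.6 to 299 CPM in the other 7 libraries. Csf1r, the receptor of the macrophage growth factor, had 245 CPM in NSC and 2.64 CPM in D0, and P2ry12, a receptor gene of microglia, had 84.7 CPM in NSC and 0.136 CPM in D0. The lower member was Tmem119, which microglia and mesenchymal cells both use, at 73.1 CPM in NSC and 164 CPM in D0. Lyz2, of the same list, had 45.8 CPM in NSC and 74.4 CPM in D0 and was not called. Of 11 markers of vessels, 5 were compared and 4 were higher, and none of the 11 was at 0 counts in either library. The list summed to 411 CPM in NSC and 18.2 CPM in D0, with 6.77 to 26.7 CPM in the other 7 libraries. The higher members were the pericyte genes Rgs5, Kcnj8 and Abcc9, at 163, 103 and 82.6 CPM in NSC and 2.31, 1.2 and 1.07 CPM in D0, and the junction gene Esam, at 35.5 CPM in NSC and 0.299 CPM in D0. The endothelial genes Cldn5, Cdh5 and Pecam1 stayed at 0.448, 1.49 and 3.56 CPM in NSC and at 0.0272, 0.0272 and 0.456 CPM in D0.

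Other non-neural lists showed less. Of 4 keratinocyte and epithelial markers compared, 3 were lower, and the list summed to 12.1 CPM in NSC and 33.6 CPM in D0, with Krt5 and Cldn4 at 0 counts in NSC. Skeletal muscle markers divided, with 2 higher and 2 lower of 4, a sum of 60.9 CPM in NSC and 96.6 CPM in D0, and the defining genes Myog, Myf5, Myf6 and Pax7 at 0 counts in NSC. Markers of ependyma and choroid plexus summed to 20.8 CPM in NSC and 12.6 CPM in D0, with Ttr, Folr1, Tmem212 and Dynlrb2 at 0 counts in NSC. In the pluripotency list only Klf4 was compared, and it was lower, at 4.77 CPM in NSC and 42.1 CPM in D0. Of neural crest and Schwann cell markers, 5 of 8 were higher and 1 lower. Among the higher ones were Sox10, Erbb3, S100b and Fabp7, which glia of the brain also use. The lower one was Pmp22, at 38.3 CPM in NSC and 420.1 CPM in D0, and Foxd3 and Dhh had 0 counts in NSC. That list summed to 678 CPM in NSC and 572 CPM in D0. Whether such other cells were present in the NSC library, and their part in the differences above, was not tested.

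**Figure D3:**
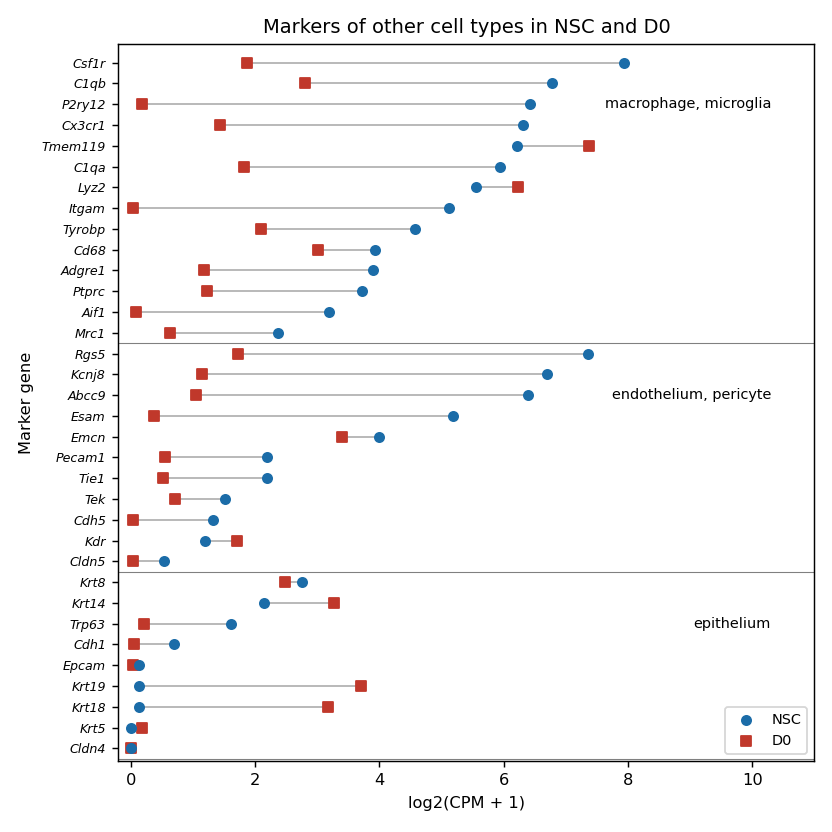
Levels of marker genes of macrophages and microglia, of endothelium and pericytes and of epithelium, as log2(CPM + 1), with 1 circle for the NSC library and 1 square for the D0 library per gene. The NSC circles lie to the right for most macrophage and microglia genes, such as Csf1r at 245 CPM in NSC and 2.64 CPM in D0, and for the pericyte genes Rgs5, Kcnj8 and Abcc9.

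Set beside the other 7 RNA libraries, the NSC library held the highest level of most neural genes. It was highest of the 9 libraries for 11 of 11 compared genes of the GABAergic programme, 6 of 6 proneural factors, 19 of 20 genes of neuroblasts and neurons and 12 of 14 forebrain factors. Members that passed the filter of 5 CPM through NSC alone favour NSC in these counts. Some glial and stem cell genes stood higher in GFP-positive (GFP+) cells derived from fibroblasts. Sox10 had 86 CPM in NSC and 2.94 CPM in D0, and 748 CPM in the GFP+ library of day 8. Nes had 344 CPM in NSC and 7.59 CPM in D0, and up to 784 CPM in the GFP+ library of day 4. On the fibroblast side, NSC was highest for 0 of 19 compared collagen and matrix genes, 0 of 20 contractile genes and 0 of 14 Hox genes. Tnc, at 5.97 CPM in NSC and 831 CPM in D0, stood at 1447 CPM or more in each of the other 7 libraries. For replication and mitosis genes, NSC was highest for 25 of 30. All 7 libraries share their fibroblast source with D0, so they add no independent comparison.

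**Figure D4:**
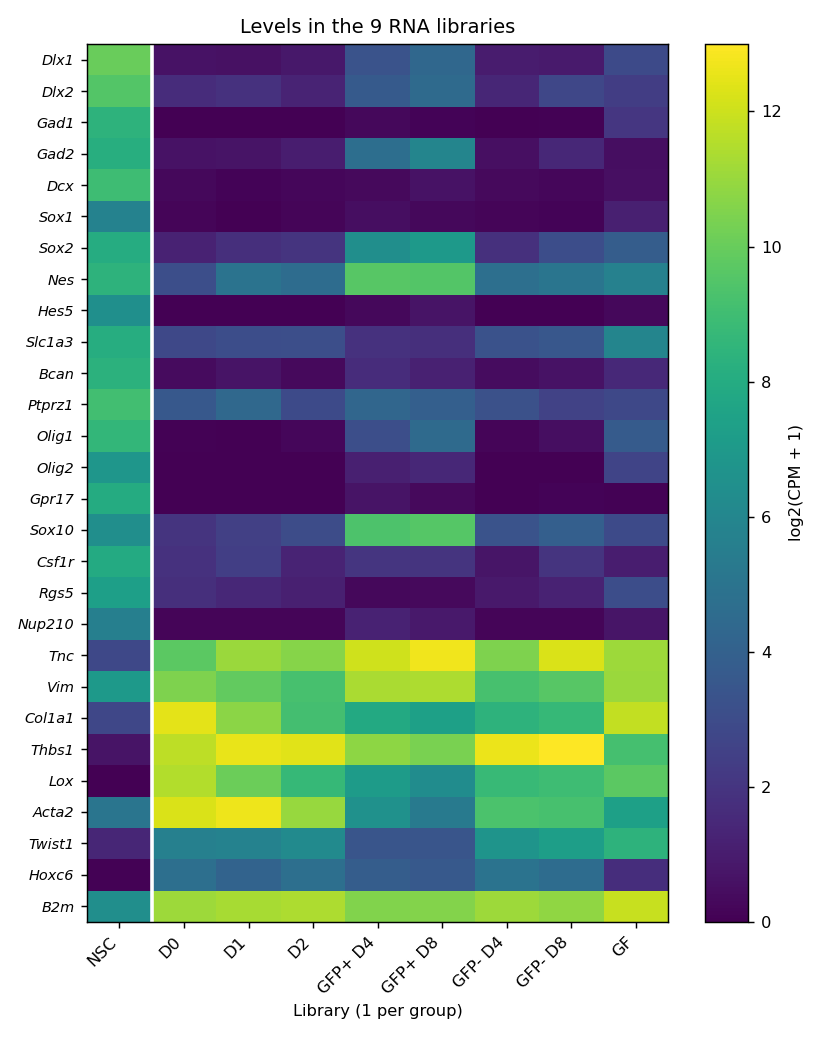
Levels of 28 list genes in the 9 RNA libraries, 1 column per library, as log2(CPM + 1) in colour. NSC is the first column, followed by D0, chemically treated fibroblasts at days 1 and 2 (D1, D2), their sorted GFP+ and GFP- fractions at days 4 and 8, and the GFP+ cells of the growth factor protocol (GF). Interneuron genes such as Dlx1 (1058 CPM in NSC, 0.572 CPM in D0) are bright in the first column, and matrix genes such as Thbs1 (0.597 CPM in NSC, 3330.3 CPM in D0) are dark there and bright in the other 8.

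Promoter sequence was compared over genes with 1 promoter entry in the RefSeq table, which 1872 of the 3311 higher and 1347 of the 2242 lower genes had. The ratio of observed to expected CG dinucleotides in the 250 bases before the start had a median of 0.71 in genes higher in NSC and 0.67 in genes lower in NSC. It was 0.775 in compared genes that were not called and 0.363 over all 22862 promoters, many of which belong to genes that neither library expressed. A ratio over 0.6 was found for 64.2% of higher genes, 60.3% of lower genes and 76% of those not called. Between lists the spread was wider. The median was 0.786 for the SoxB1 and stem cell genes, with 7 of 8 promoters over 0.6, and 0.235 for fibrillar collagens and matrix, with 3 of 11 over 0.6. It was also low for radial glia and astrocyte genes, at 0.214, with 2 of 13 over 0.6, so the order of lists did not follow the direction of the difference.

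Short motifs, read on both strands with overlaps allowed, gave small differences. TGACTCA, the AP-1 site, occurred in 2.08% of promoters of higher genes, 4.6% of those of lower genes, 2.44% of those not called and 4.47% of all promoters. GGAATG, the TEAD site, occurred in 10.4% of higher, 12.5% of lower, 9.62% of not called and 12.6% of all promoters. TAATTA, the homeodomain site, occurred in 2.78% of higher, 1.86% of lower, 2% of not called and 5.04% of all promoters. CAGCTG, an E-box, occurred in 11.8% of higher, 12.5% of lower, 10.8% of not called and 12.7% of all promoters, and ACAAAG, a Sox site, in 13.3% of higher, 12% of lower, 11.2% of not called and 16.8% of all promoters. TATAAA occurred in 6.57% of higher, 8.61% of lower, 5.59% of not called and 13.6% of all promoters. The CArG box, searched loosely with any bases between its outer pairs, occurred in 81.4% of higher, 83.2% of lower, 81% of not called and 65.8% of all promoters. These are counts of letters in a short window, not of bound sites.

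**Figure D5:**
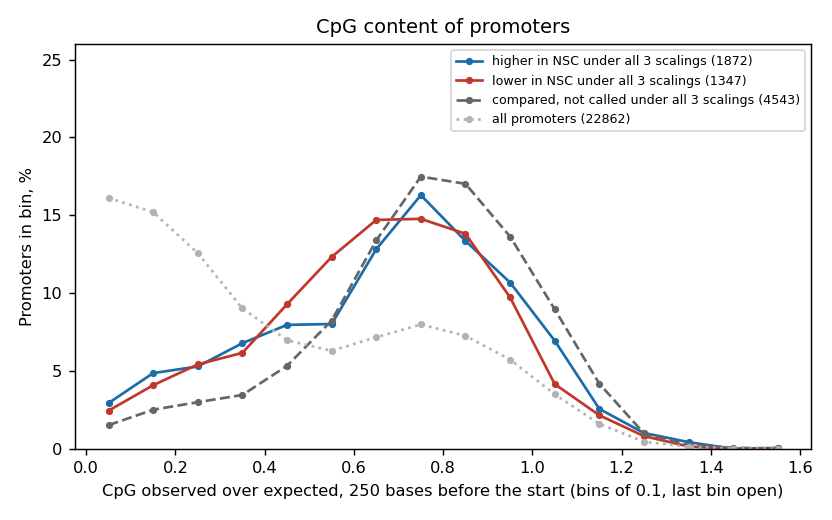
Distribution of the CpG ratio, observed over expected, in the 250 bases before the start (horizontal axis, bins of 0.1), as % of promoters in each bin (vertical axis), for genes higher in NSC, lower in NSC, compared but not called, and all promoters. The higher and lower genes, with medians of 0.71 and 0.67, lie close together, and all promoters, with a median of 0.363, peak at low ratios.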

How the data were processed

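RNA was measured in both groups with 1 library each. The authors deposited estimated counts per gene symbol, and the values, although filed as TPM, hold fractional numbers and sum to different totals, so they were read as estimated counts. Per the submitters' processing notes, kallisto 0.43.1 and the builds GRCm38 and mm10 were used, and the annotation behind the gene sums is not given in the sources used here. CPM were computed from column totals, with a pseudocount of 1 CPM and genes at 5 CPM or above in NSC or D0 were called at 2-fold. Scaling was repeated with median ratio and TMM (edgeR 4.0.16) factors. Ratios carry exact conditional binomial 95% intervals on rounded counts, and a fold against 0 counts was taken against 3 counts in that library. Scripts used Python 3.11.15 with scipy 1.17.1, and the code for the calls was run on simulated data. The simulated libraries shared a common profile apart from chosen genes and held counting error only. That run therefore cannot judge the choice of scaling or the spread between cultures. The 46 gene lists name 833 genes, of which 828 were in the table. Genes named are the 4 given markers, key members of lists, up to 4 members of each list with the largest difference in each direction, and the 15 highest and 15 lowest genes at 20 CPM or more under all 3 scalings. A few genes that this rule names are left out of the text. Other list members were named after their values were seen. The members and the lists were chosen with earlier results of these data known. Other pseudocounts, filters and trimmed totals were also tried. Positions and promoters are from RefSeq, GRCm38.p6.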

Additional observations from a re-analysis of the deposited data

How the results depend on the processing

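Scaling was the choice that mattered most. TMM scaling gave 3311 genes higher and 4566 lower in NSC, against 6445 and 2242 with CPM, and the share of called genes that were higher was 42% with TMM, 59.4% with median ratio scaling and 74.2% with CPM. Among the named genes, TMM turned the log2 difference of Amotl2 to -1.13 (0.05 with CPM) and that of Pdgfra to -0.11 (1.08 with CPM). Of 301 named genes, 259 were called with CPM and 240 of these kept their call under all 5 scaling and pseudocount settings. Of 92 shares of list members higher or lower, TMM moved 17 beyond their binomial interval and median ratio scaling moved 2. Pseudocounts of 0.1 and 5 CPM and filters of 0, 1 and 20 CPM left the counts of higher and lower genes within 1.5 times. No paired analysis was possible because each group is 1 library. For the same reason no library could be left out, and the spread between separate cultures is unknown. The counting interval of 0 counts reaches up to 0.183 CPM in NSC and 0.1 CPM in D0. These limits lie above the floor of 3 counts, which is 0.149 CPM in NSC and 0.0816 CPM in D0. Folds against 0 counts were taken against that floor, and folds that rest on 1 to 3 counts have wide counting intervals.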
